A study of Mus musculus with 33 samples.

Results

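Embryoid bodies (EBs) grown from an Apex1 mutant line of mouse embryonic stem cells (mESCs) were compared with EBs of control lines by RNA-seq. The comparison was chosen by genotype and culture condition and holds 5 of the 33 libraries of the series. All lines derive from E14TG2a, a male-derived feeder-independent mESC line in wide use. The control group, labelled wild-type, consists of clones 1, 4 and 7, which had been transfected with an empty Cas9 plasmid and selected with puromycin, 1 library per clone. The Apex1 group, labelled Apex1 knockout, consists of 2 libraries of clone 46, which had received the same plasmid with guides against Apex1. Per the study's methods these are technical duplicates, so that a single mutant clone stands for the genotype and no second Apex1 clone was sequenced. Cells of both groups were grown for 8 days as floating aggregates without retinoic acid. The series contains the same Apex1 and control clones as undifferentiated mESCs and as EBs treated with retinoic acid, and 3 Neil1 and 3 Neil2 mutant clones under the same 3 conditions, besides teratomas. The libraries treated with retinoic acid and the teratomas were not used here.

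APEX1 is the main endonuclease that cuts DNA at abasic sites. These sites arise spontaneously and when a DNA glycosylase such as NEIL1, NEIL2 or TDG removes a damaged or modified base. Cutting by APEX1 lets DNA polymerase beta, XRCC1 and a ligase complete base excision repair. The protein also has a redox function through which it can act on AP-1, p53 and other transcription factors. In EB culture mESCs leave the pluripotent state and form an aggregate with an outer endoderm layer, a primitive streak-like phase and its mesoderm and endoderm derivatives, and ectoderm. Which of these lineages an Apex1 mutant clone forms, in comparison with controls, was the question the comparison addressed.

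The guide sequences place the intended deletion in the 3′ part of Apex1 (ENSMUSG00000035960, chr14:51544643-51546814, plus strand, NCBIM37). Both guides match the plus strand once on that chromosome. They are shown because they determine which part of the transcript a read count can report on. Capitals mark the PAM.
Apex1 guide 1: tgcccgctaaaagtctcttaTGG
Apex1 guide 2: aagatccggtccaaggctctTGG
Guide 1 (chr14:51546001-51546020) lies in exon 4 and guide 2 (chr14:51546586-51546605) in exon 5, the last exon. The predicted cuts follow bases 51546017 and 51546602 and enclose 585 bases, of which 483 are exonic and all 483 are coding. Exons 4 and 5 lie wholly inside the last exon of Tmem55b, a gene on the opposite strand. The library kit did not mark strand, and a read that falls in both genes is assigned to neither. Of the 1422 exonic bases of Apex1 in the annotated transcript with most exons, 545 are not shared with Tmem55b, and these include none of the bases between the cuts.

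**Figure D1:**
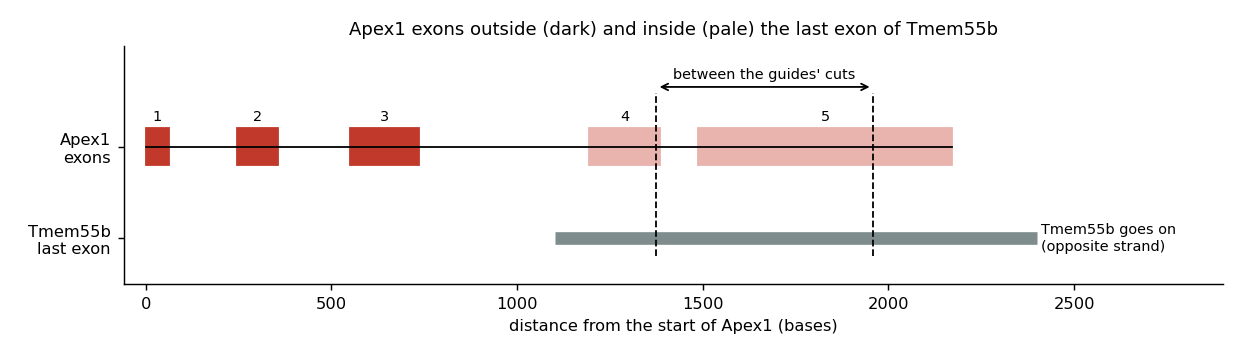
Map of the Apex1 gene, with the distance from its annotated start in bases on the horizontal axis. Boxes are exons, dark where reads could be assigned to Apex1 (exons 1 to 3) and pale where the exon lies inside the last exon of Tmem55b (exons 4 and 5). Dashed lines mark the predicted cuts, 585 bases apart, both in pale exons.

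The Apex1 count thus came from the exons upstream of the deletion and gave no check of it. It was not lower in the mutant. Normalised read counts, given as CPM (counts on a gene scaled to the library's total), were 14.9, 14.6 and 12.0 in the controls and 57.4 and 82.4 in the Apex1 libraries, a log2 fold change of 2.33 ± 0.16 (SE). The libraries labelled Apex1 knockout were separated from the controls in the same direction as mESCs, with 75.9 and 71.8 CPM against 8.05, 7.62 and 17.4 CPM. Tmem55b had 36.4, 40.8 and 40.1 CPM in control EBs and 40.7 and 34.8 CPM in Apex1 EBs, with no detectable difference (FDR 0.759). In mESCs its values were 39.8, 37.4 and 35.7 CPM in controls and 20.1 and 25.1 CPM in the Apex1 clone.

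Total counts on genes ranged from 25992707 to 28597214 in 4 of the EB libraries and reached 48350904 in control clone 1. The Apex1 duplicates differed by more than counting noise, with a chi-square per degree of freedom of 11.4 between their counts, but by less than any pair of control clones (21.2 to 38.3). The SD of their log2 differences was 0.213, against 0.232 to 0.304 between control clones. The aggregates carried transcripts of differentiated cells: Brachyury (T), a marker of the primitive streak, had 68.4, 69.6 and 115 CPM in control EBs and 1.08, 0.855 and 0.655 CPM in the same clones as mESCs, on a scale common to both stages. Foxa2, a transcription factor of the endoderm, had 12.3, 15.0 and 11.6 CPM in control EBs and at most 0.308 CPM in control mESCs. Pou5f1 stayed at 391 to 407 CPM in control EBs, against 868 to 874 CPM in control mESCs. An EB library mixes many cell types, so that fewer cells of a type and less RNA per cell cannot be told apart.

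Apex1 EBs were compared with control EBs at a false discovery rate (FDR) of 10% and an absolute log2 fold change over 0.5. The study's own design enters the duplicates as separate samples. Fitted so, 1873 of 15780 genes were higher (11.9%) and 2195 lower (13.9%) in the Apex1 libraries. In this 5-library fit the spread of the Apex1 group is that of technical duplicates, and its p-values do not measure the spread between clones. The comparison was therefore also made with the duplicates summed to 1 sample and the spread taken from the 9 control, Neil1 and Neil2 clones, which assumes that Apex1 clones vary like the others. In this clone-level fit 694 of 16864 genes were higher (4.12%) and 805 lower (4.77%). Both fits called 690 genes higher (4.37% of 15780) and 794 lower (5.03%). In the following, "higher" and "lower" refer to calls of the 5-library fit, and "rose" and "fell" are used only of genes called in both. Values after ± are standard errors of the 5-library fit, and FDRs are given in the order 5-library fit, clone-level fit. Even both fits together describe a single mutant clone, in which the mutation and other properties of the clone cannot be told apart.

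Among genes averaging at least 2 in log2 CPM whose groups did not overlap, the following were among the largest rises and falls past both fits. Cbr3, which encodes a carbonyl reductase, had 21, 22.1 and 18.9 CPM in controls and 109 and 117 CPM in the mutant (5.49-fold, FDR 5.86e-07 and 0.000269). Kbtbd11 (6.57-fold), Pnma2 (5.64-fold), Naaa, a lysosomal amidase of lipid metabolism (4.98-fold), Runx1t1, a transcriptional corepressor (4.71-fold), and Cyyr1 (4.33-fold) rose as well. Apex1 itself was also among the largest rises.

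Of the falls, that of Anxa1 was the largest by these conditions. Anxa1, which encodes a phospholipid-binding annexin, had 22.8, 50.9 and 46.2 CPM in the controls and 2.41 and 1.86 CPM in the mutant, an 18.7-fold fall (FDR 0.0032 and 0.00593). Krt8, a keratin of simple epithelia and of the first epithelia of the embryo, had 692, 1077 and 835 CPM in the controls and 70.3 and 87 CPM in the mutant (11.0-fold, FDR 6.79e-05 and 0.00466). Kdr, the VEGF receptor that marks mesoderm giving rise to blood and vessels, had 40.9, 29.5 and 37.1 CPM against 2.87 and 4.73 CPM (9.40-fold, FDR 2.59e-05 and 0.000654). That the groups did not overlap was a condition for naming these genes and says nothing further about them. Pmp22, a membrane protein first known from peripheral myelin, fell 9.43-fold, Col1a2, a chain of type I collagen, 14.5-fold, and Acta2, smooth muscle actin, 12.7-fold. The interferon-induced GTPase genes Gbp2 and Gbp1 were lower by 14.1-fold and 12.4-fold with a wide spread among the control clones (15.6, 30.6 and 68.8 CPM for Gbp1). Without control clone 4 neither passed the 5-library fit any longer (FDR 0.104 and 0.173), and Gbp1 also did not pass without either Apex1 library (0.254 and 0.255). They are members of a multigene family, and reads shared with other copies were not counted.

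Genes were then grouped in 33 lists of lineage markers, signalling pathways and stress responses, and the tested members of each were counted. More members were lower than higher in 23 lists. Pluripotency genes stood at the upper end, with a median log2 fold change of 0.79, whereas trophoblast (−2.69), visceral and definitive endoderm (−2.13), Hox genes (−1.94), mesenchymal matrix (−1.89) and primitive streak (−1.48) stood at the lower end. The median over all tested genes was −0.0001. Counts of higher and lower members below stand beside 11.9% and 13.9% of all tested genes. Counts past both fits stand beside 4.37% higher and 5.03% lower.

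Apex1 EBs held more RNA of pluripotency genes than control EBs. Of 25 tested members 17 were higher (68%, against 11.9% of all tested genes) and 1 lower, and 10 rose in both fits. Esrrb, an orphan nuclear receptor of the naive state, had 176, 175 and 171 CPM in the controls and 388 and 386 CPM in the mutant, a log2 fold change of 1.15 ± 0.08 (FDR 8.02e-06 and 0.00466). Pou5f1, which encodes the core factor OCT4, had 396, 382 and 383 CPM against 660 and 782 CPM (0.90 ± 0.09, FDR 8.74e-05 and 0.093). Sox2, its partner, had 281, 297 and 282 CPM against 448 and 541 CPM (0.79 ± 0.10, FDR 0.000222 and 0.0415). Both Apex1 libraries lay above every control for each of these genes, as held in this direction for 29.3% of all tested genes. Zfp42, Tfcp2l1, Dppa4, Dppa5a, Fgf4, Tdgf1 and Tcl1 rose likewise, by log2 fold changes of 0.79 to 1.41. Dppa5a, one of the most abundant of these transcripts, had 1407, 1566 and 1917 CPM in controls and 3304 and 3128 CPM in the mutant. Lefty1 and Gdf3, Nodal pathway genes expressed in mESCs, were higher in the 5-library fit alone (1.39 ± 0.28 and 1.05 ± 0.22). Nanog had a log2 fold change of 0.49 ± 0.10, under the limit on size. Klf4 (−0.28 ± 0.13) and Klf5 (0.04 ± 0.15) were not called. Tbx3, which is also expressed in early endoderm and mesoderm, fell from 129, 128 and 111 CPM to 67.3 and 62.2 CPM.

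Markers of the formative and primed epiblast, the state that follows naive pluripotency, moved mostly in the same direction, with 7 of 13 higher and 1 lower. Otx2, a homeobox factor of this state and of the anterior epiblast, rose from 53.9, 46.6 and 54.2 CPM to 93.6 and 102 CPM (0.92 ± 0.10, FDR 9.86e-05 and 0.00782). Fgf5 had 20.5, 18.9 and 28 CPM against 36.6 and 43.7 CPM, which the clone-level fit did not call (FDR 0.00432 and 0.337). Lefty2 and the amino acid transporter gene Slc7a3, at 0.96 ± 0.12 and 0.94 ± 0.15, did not pass it either. Cdh2, encoding N-cadherin, which cells gain when they leave the epiblast, fell from 121, 103 and 77.2 CPM to 18 and 25.9 CPM (−2.19 ± 0.24, FDR 0.00114 and 0.00664).

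Genes of the primitive streak and early mesoderm were reduced. Of 21 tested members 13 were lower (61.9%, against 13.9% of all tested genes) and 2 higher, and 7 fell in both fits. Mixl1, a homeobox factor of the streak, fell from 98.8, 62.8 and 103 CPM to 18.4 and 26.6 CPM (−1.97 ± 0.29, FDR 0.00568 and 0.0323). Evx1 fell from 31.6, 24.5 and 30.4 CPM to 5.55 and 7.72 CPM (−2.12 ± 0.18, FDR 3.01e-05 and 0.0154). Cdx2, which patterns the posterior streak and is also a trophoblast factor, fell from 79.0, 73.5 and 46.9 CPM to 8.73 and 10.7 CPM (−2.77 ± 0.26, FDR 0.000533 and 0.00303). Wnt3, Fgf8, Mesp1 and Msgn1 fell by log2 values of −1.92, −2.19, −2.01 and −2.73. T had 66.6, 67.9 and 112 CPM against 26.5 and 32.4 CPM, and Eomes, a T-box factor of streak and endoderm, had 106, 82.7 and 113 CPM against 59.1 and 63.4 CPM. These values did not overlap, as held in this direction for 29% of all tested genes, and neither gene passed the clone-level fit (FDR 0.217 for T and 0.248 for Eomes). Wnt3a stayed near 1 CPM in every library and was not called. Tcf15, a mesodermal factor that is also expressed in cells about to leave naive pluripotency, rose from 10.5, 11.1 and 11.1 CPM to 20.1 and 24.9 CPM (1.05 ± 0.14, FDR 0.000395 and 0.0238).

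Endothelial markers split. Besides Kdr, Aplnr, the apelin receptor of early mesoderm and vessels, fell from 10.1, 9.33 and 13.4 CPM to 1.13 and 1.78 CPM (−2.90 ± 0.27), and Flt1 fell by −1.74 ± 0.34. Tek, the angiopoietin receptor, rose from 11.2, 7.21 and 5.59 CPM to 21.1 and 20.8 CPM (1.37 ± 0.25), and Eng rose by 1.23 ± 0.14. Cdh5, VE-cadherin, had 3.32, 6.31 and 1.84 CPM against 1.09 and 1.46 CPM (FDR 0.0547 and 0.49). In total 6 of 19 members were lower and 5 higher (31.6% and 26.3%, against 13.9% and 11.9% of all tested genes). The number higher was 3 without Apex1 replicate 1. Pecam1, Tek and Eng are not restricted to endothelium, and Pecam1 is expressed in mESCs. Lmo2, a factor of blood progenitors, fell from 9.57, 6.83 and 5.13 CPM to 1.78 and 2.95 CPM, while Tal1, its partner, had 3.50, 2.20 and 0.636 CPM against 0.543 and 0.473 CPM (FDR 0.0707 and 0.154). Most of the erythroid list was at the limit of detection: 7 of its 17 genes found in the files were tested, and the embryonic globin Hbb-bh1 did not exceed 2.24 CPM in any library. Among macrophage genes 6 of 17 were tested. Csf1r fell from 1.81, 3.25 and 2.26 CPM to 0.233 and 0.219 CPM, and Laptm5, a lysosomal membrane protein of blood cells, rose from 17.2, 14.2 and 12.2 CPM to 56.2 and 48.6 CPM. Laptm5 was also expressed in mESCs, at 54 to 67.1 CPM in controls and 114 CPM in each Apex1 library. Ptprc and Tyrobp, which define blood cells and macrophages, were too low to be tested.

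Heart and striated muscle genes were low in all EBs and lower in the mutant, with 10 of 19 tested members lower (6 without Apex1 replicate 1) and 4 falling in both fits. Actc1, cardiac actin, fell from 5.45, 4.52 and 4.38 CPM to 0.155 and 0.510 CPM (−3.82 ± 0.38, FDR 6.79e-05 and 0.00404). Tbx20 fell from 8.33, 6.16 and 7.42 CPM to 1.40 and 1.42 CPM, Tnni1 by −1.93 ± 0.31 and Isl1, a factor of cardiac and other progenitors, by −1.44 ± 0.23. Hand2 (−2.65 ± 0.87), Myl3 (−2.38 ± 0.32) and Tnnt2 (−1.05 ± 0.38) were lower in the 5-library fit alone, and Myh6 (−0.49 ± 0.25) was not called. Nkx2-5 did not exceed 0.460 CPM in any library.

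Mesenchymal matrix was one of the groups with the most members past both fits: of 17 tested members 11 were lower, and 10 of these fell in both fits. Tagln, an actin-binding protein of smooth muscle and mesenchyme, had 130, 130 and 128 CPM in the controls and 12.7 and 17.4 CPM in the mutant (−3.10 ± 0.14, FDR 7.77e-07 and 0.00186). Col1a1, the other chain of type I collagen, had 170, 189 and 93.6 CPM against 15.5 and 20.1 CPM (−3.08 ± 0.40, FDR 0.00729 and 0.0105). Tnc (−2.67), Bgn (−2.38), Col5a1 (−2.16), Pdgfrb (−1.89) and Postn (−3.33) fell along with Acta2 and Col1a2. Fibronectin (Fn1), far more abundant, fell from 1561, 1361 and 1149 CPM to 652 and 701 CPM. Col3a1, Fbn1, Twist1 and Prrx1 were not called. For these 4 genes control clone 7 was well below the other controls and lay within or below the range of the mutant, as for Twist1 with 16.8, 18.7 and 6.40 CPM in controls and 5.82 and 7.54 CPM in the mutant. Sfrp1, a secreted Wnt antagonist, rose from 17.4, 18.6 and 28.4 CPM to 34.8 and 42.1 CPM (0.85 ± 0.21), a call not made without Apex1 replicate 2 (FDR 0.135).

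Endoderm genes were lower almost throughout in the 5-library fit, and most of these calls were not made by the clone-level fit. Of the members 20 of 24 tested were lower (83.3%) and none higher, and 5 of the 20 fell in both fits. Gata4, a zinc finger factor of extraembryonic and definitive endoderm, had 74.5, 66.1 and 67.6 CPM in the controls and 14.9 and 15.2 CPM in the mutant (−2.20 ± 0.11, FDR 1.48e-06 and 0.0893). Cxcr4, a chemokine receptor of definitive endoderm and mesoderm, fell from 33.6, 33 and 21.7 CPM to 5.24 and 5.90 CPM (−2.40 ± 0.21, FDR 4.74e-05 and 0.00466). Foxa2 fell from 12.0, 14.6 and 11.3 CPM to 2.48 and 4.15 CPM (−1.92 ± 0.24), and Ttr, a thyroxine and retinol carrier made by visceral endoderm, from 55.9, 34.9 and 77.4 CPM to 12.3 and 9.32 CPM. Gata6 had 20.9, 22.4 and 20.2 CPM against 6.05 and 6.70 CPM, and Sox17 24.1, 27 and 18.1 CPM against 4.66 and 5.28 CPM. The clone-level FDR was 0.100 for Gata6 and 0.106 for Sox17, at the limit. The visceral endoderm products Apoa1, Apoa4, Apob, Apoc2, Cubn, Amn and Rbp4 had log2 fold changes of −1.86 to −2.79 without passing the clone-level fit. Afp, alpha-fetoprotein, varied most among controls (78.6, 41.1 and 196 CPM, against 18.8 and 9.43 CPM) and was not called (FDR 0.132). Hhex and Cer1, early anterior endoderm genes at low level, were not called.

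The basement membrane list, which includes products of parietal endoderm, behaved alike: 12 of 15 were lower and 5 fell in both fits. The type IV collagen chains Col4a1 and Col4a2 fell from 408 to 490 CPM to 97.9 and 111 CPM and from 213 to 269 CPM to 46.5 and 54.0 CPM (−2.11 ± 0.11 and −2.26 ± 0.12). Clone-level FDRs were 0.0665 and 0.0724. Pdgfra, a receptor of primitive endoderm and paraxial mesoderm, fell from 35.9, 25.3 and 28.1 CPM to 5.51 and 6.26 CPM, Pth1r by −1.85 ± 0.13 and Nid1 by −0.82 ± 0.12. Lama1 (−1.61), Lamb1 (−0.65), Sparc (−1.46) and Plat (−2.13) were lower in the 5-library fit alone. Hspg2, encoding the basement membrane proteoglycan perlecan, had 312, 384 and 322 CPM in controls and 370 and 330 CPM in the mutant, without a call.

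Neuroectoderm genes did not move as a group. Pax6, a homeobox factor of the neural tube and eye, rose from 0.624, 1.05 and 0.919 CPM to 6.17 and 7.25 CPM (2.99 ± 0.26, FDR 3.38e-05 and 0.00782). It was the largest rise of any list member. Nes, an intermediate filament of neural progenitors that is also found in muscle and endothelium, fell from 29.2, 29.4 and 42.9 CPM to 14.5 and 16.6 CPM (−1.12 ± 0.18, FDR 0.00153 and 0.0368). Sox11 fell by −1.37 ± 0.33, but without either Apex1 library the FDR was 0.123 or 0.129. Ncam1, a neural adhesion molecule, was lower in the 5-library fit alone (−0.52 ± 0.18). Altogether 4 of 13 tested members were lower (2 without Apex1 replicate 2) and 1 higher, and 6 of the 13 had under 1 CPM on average in controls. Of the neuronal genes 7 of 16 were higher and 2 lower (1 without either Apex1 library). Crmp1 rose from 7.08, 7.77 and 7.92 CPM to 23.5 and 22.4 CPM (1.60 ± 0.14, FDR 2.92e-05 and 0.0249) and Neurod1, a proneural factor, from 0.986, 0.635 and 0.884 CPM to 3.14 and 3.61 CPM (1.99 ± 0.28). Gap43, a growth cone protein, fell from 6.16, 11.6 and 6.89 CPM to 2.02 and 1.97 CPM. Map2 (0.79 ± 0.20) and Stmn3 (1.22 ± 0.30) were higher in the 5-library fit alone, Tubb3 and Nefm were not called, and Dcx did not exceed 0.382 CPM. Crmp1 was also expressed in mESCs, at 33.4 to 42.4 CPM in controls.

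In the neural plate border and neural crest list 8 of 21 were lower (5 without either Apex1 library), 4 of which fell in both fits, and 2 were higher. Msx1 and Msx2, homeobox targets of BMP signalling, fell from 101, 118 and 62.6 CPM to 9.86 and 10.2 CPM (−3.22 ± 0.32) and from 71.4, 81.6 and 59.6 CPM to 19.2 and 18.9 CPM (−1.90 ± 0.14). Ets1, a factor of crest, endothelium and blood, fell by −1.52 ± 0.14. Sox9 fell from 2.51, 3.58 and 1.48 CPM to 0.388 and 0.911 CPM, but without Apex1 replicate 1 it did not pass (FDR 0.109). Nr2f2 was lower in the 5-library fit alone (−1.65 ± 0.32). Pax3 had 0.744, 1.34 and 1.13 CPM against 0.310 and 0.182 CPM (FDR 0.0074 and 0.17). Crabp1, a retinoic acid binding protein of crest and hindbrain, had 18.8, 18.7 and 18.8 CPM against 24.2 and 18.7 CPM and was not called. Tfap2b, Neurog1 and Dbh, genes of later crest derivatives, were too low to be tested, with at most 0.212 CPM in any library.

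Hox genes, whose clusters are switched on in order during posterior patterning, were lower in 26 of 36 tested members and higher in 2, and 12 fell in both fits. The number lower was 11 without Apex1 replicate 1 and 16 without replicate 2. Hoxd9 fell from 13.7, 15.7 and 9.65 CPM to 1.51 and 3.21 CPM (−2.46 ± 0.33, FDR 0.000979 and 0.00902). Hoxc8 fell from 9.27, 7.99 and 3.11 CPM to 0.621 and 0.801 CPM (−3.25 ± 0.55, FDR 0.00475 and 0.0492). Hoxd1 and Hoxa13 fell by −2.17 ± 0.31 and −2.15 ± 0.39. Members of all 4 clusters fell. Hoxa7, Hoxa9, Hoxa10, Hoxa11 and Hoxb5 passed both fits but not the 5-library fit without Apex1 replicate 1 (FDR 0.122 to 0.18). Hoxb6 (−3.02 ± 0.69, FDR 0.0191 and 0.103) and Hoxb1 (−1.16 ± 0.33, FDR 0.0233 and 0.323) did not pass the clone-level fit. Hoxa2 had about 1 CPM in every library and was not called.

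In the epithelial list 7 of 20 members were lower (35%, against 13.9% of all tested genes), and 4 fell in both fits. The 2 higher members (10%, 1 without control clone 1) were near the 11.9% of all tested genes, and 1 rose in both fits. Besides Krt8, Krt18, its partner, fell from 399, 605 and 649 CPM to 53.5 and 70.7 CPM (−3.15 ± 0.27, FDR 0.000729 and 0.00902) and Krt19 from 85.1, 150 and 136 CPM to 20.0 and 19.4 CPM (−2.65 ± 0.27). Krt17 rose from 2.07, 1.83 and 2.23 CPM to 5.39 and 4.77 CPM. Cdh1, E-cadherin, had 289, 303 and 336 CPM in controls and 422 and 442 CPM in the mutant, a log2 fold change of 0.48 ± 0.09 that was under the limit on size. Epcam, Esrp1 and St14 had log2 fold changes of 0.02, −0.03 and 0.20 and were not called. Cldn7 fell by −1.16 ± 0.13.

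Among trophoblast genes 8 of 13 were lower, none higher, and 4 fell in both fits. Hand1, a factor of trophoblast giant cells that is also made in extraembryonic and lateral mesoderm, had 86.2, 106 and 86.1 CPM in the controls and 10.4 and 9.80 CPM in the mutant (−3.20 ± 0.13, FDR 5.86e-07 and 0.00404). Plac1 fell from 8.39, 10.2 and 5.76 CPM to 0.737 and 0.911 CPM and Krt7 from 24.1, 54.2 and 42.6 CPM to 6.21 and 3.90 CPM. Cdx2, described above, was the fourth. The giant cell hormone Prl7d1 had 1.19, 5.04 and 1.27 CPM against 0.0776 and 0.0364 CPM, without passing the clone-level fit. Elf5 and Gcm1, which define trophoblast stem cells and labyrinth, stayed at or under 3.22 CPM and were not called.

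Germline genes gave 3 members higher (15%), 4 lower (20%) and 13 not called. Of all tested genes 11.9% were higher and 13.9% lower, which is near these shares. Tdrd1, a piRNA pathway component, rose from 3.04, 2.99 and 2.55 CPM to 6.79 and 6.37 CPM (1.20 ± 0.20), and Ddx4 rose by 0.72 ± 0.12 with a clone-level FDR of 0.0998. Rpl10l rose from 24.3, 27.3 and 30.9 CPM to 69.1 and 73.5 CPM, and Tuba3a fell from 28.9, 31.5 and 31.3 CPM to 14.6 and 10.5 CPM. Dazl (−0.56 ± 0.16) and Slc25a31 (−0.90 ± 0.22) were lower in the 5-library fit alone, and Sycp3 was not called. Rpl10l is a retrogene of Rpl10 and Tuba3a has a near-identical copy, so that their counts are uncertain.

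**Figure D2:**
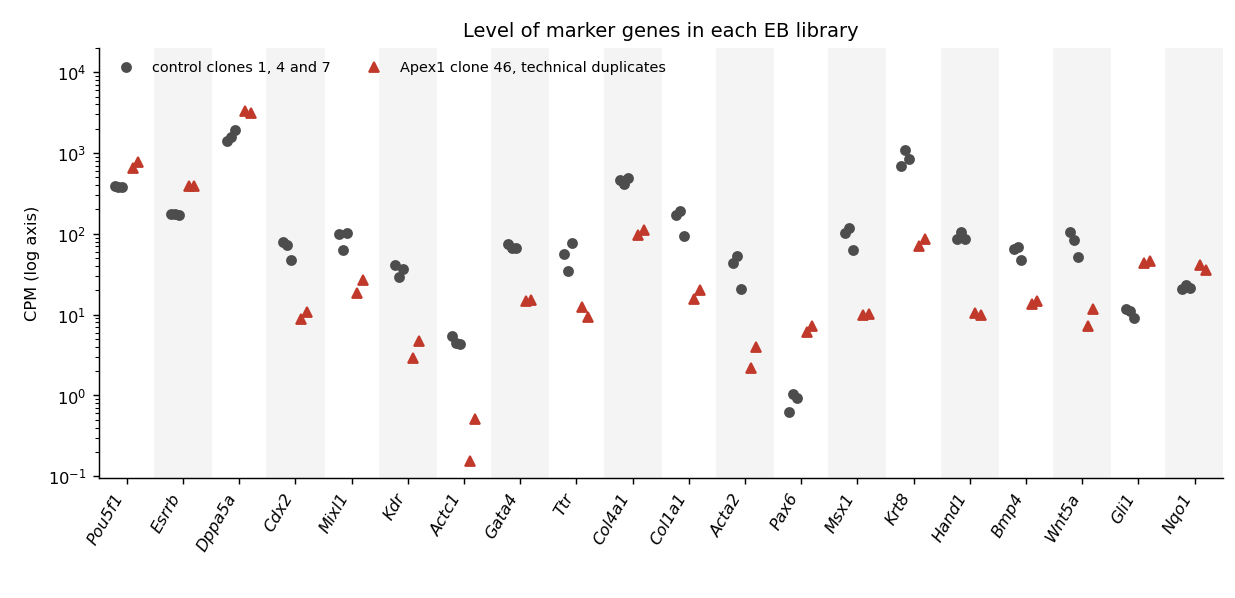
CPM of 20 marker and pathway genes in each EB library, on a log axis. Circles are the control clones 1, 4 and 7, and triangles the technical duplicates of Apex1 clone 46. Pou5f1, Esrrb, Dppa5a, Pax6, Gli1 and Nqo1 lie above the controls in both Apex1 libraries, and the other 14 genes lie below, without overlap for any gene. Of all tested genes 29.3% lay above the controls without overlap and 29% below.

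Genes of the Wnt and BMP pathways, which pattern the streak and its derivatives, were mostly reduced. In the Wnt list 14 of 23 tested members were lower and 4 higher, and 11 fell and 2 rose in both fits. Of the ligands, Wnt5a fell from 105, 82.8 and 51.0 CPM to 7.26 and 11.8 CPM (−3.06 ± 0.44, FDR 0.00982 and 0.00466), and Wnt3, Wnt4, Wnt5b and Wnt6 fell by −1.39 to −2.08. Wnt6 did not pass without Apex1 replicate 2 (FDR 0.122). Wnt8a had 13.4, 12.3 and 15.3 CPM against 26.2 and 27.5 CPM, which the clone-level fit did not call (FDR 0.328). Target genes and feedback inhibitors of the pathway fell with the ligands. Axin2 fell from 100, 83.9 and 64.9 CPM to 33.3 and 33.5 CPM (−1.31 ± 0.17), Dkk1, a secreted antagonist, from 41.8, 40.9 and 28.5 CPM to 5.43 and 6.74 CPM (−2.61 ± 0.20), and Nkd1 and Sp5 by −2.19 ± 0.18 and −1.98 ± 0.24. Rspo3 (−1.77 ± 0.23) and Lgr5 (−2.86 ± 0.72), a ligand and receptor that amplify Wnt signals, fell, the latter without a call when Apex1 replicate 1 was left out (FDR 0.144). Sfrp2, an antagonist made by mESCs and neural cells, rose from 9.13, 11.6 and 10.9 CPM to 26.1 and 27.9 CPM (1.36 ± 0.14, FDR 7.75e-05 and 0.01).

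In the BMP list 14 of 18 were lower, none higher, and 9 fell in both fits. Bmp4, the ligand that induces posterior mesoderm, had 64.1, 68.8 and 47.7 CPM in the controls and 13.6 and 14.7 CPM in the mutant (−2.09 ± 0.16, FDR 2.58e-05 and 0.00425). Bmp2 had 29.1, 32.7 and 19.4 CPM against 2.68 and 3.46 CPM (−3.14 ± 0.26, FDR 4.99e-05 and 0.0445). Bmp5 and Gdf6 fell at low levels, whereas Bmp7 had 19, 19.9 and 19.3 CPM against 22.1 and 20.0 CPM and was not called. Id1, an immediate target, fell from 85.7, 129 and 91.4 CPM to 27.5 and 25.8 CPM (−1.94 ± 0.18), and Id3 and Bambi fell by −0.99 ± 0.12 and −1.11 ± 0.20. The antagonist Noggin (Nog) fell from 4.02, 6.12 and 6.08 CPM to 0.621 and 0.692 CPM, and Bmper by −2.53 ± 0.28. Smad7 and Chrd were not called.

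Of the Nodal list 5 of 10 members were higher and 3 lower (50% and 30%, against 11.9% and 13.9% of all tested genes). The ligand gene Nodal had 118, 105 and 88.3 CPM against 181 and 168 CPM, and its antagonists Lefty1 and Lefty2 had log2 fold changes of 1.39 ± 0.28 and 0.96 ± 0.12, none of them past the clone-level fit (FDR 0.183 to 0.438). Tdgf1, the co-receptor, rose from 317, 326 and 401 CPM to 662 and 647 CPM (0.91 ± 0.11), whereas its homologue Cfc1 fell from 6.16, 5.19 and 8.45 CPM to 1.63 and 1.78 CPM (−1.95 ± 0.26). The convertase gene Furin fell by −0.77 ± 0.13. Nodal, Lefty1, Gdf3 and Tdgf1 are also expressed in pluripotent cells.

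Hedgehog genes moved in both directions. Gli1, a transcription factor and the usual target readout of the pathway, rose from 11.9, 11.1 and 9.09 CPM to 43.6 and 45.8 CPM (2.06 ± 0.13, FDR 6.59e-06 and 0.00853). The receptor and target gene Ptch1 rose from 45.3, 38.4 and 33.1 CPM to 87.5 and 82.2 CPM (1.12 ± 0.12, FDR 0.000117 and 0.0279), and Gli2 by 0.92 ± 0.14. The ligand Ihh, made by visceral endoderm, fell from 9.96, 6.76 and 7.35 CPM to 2.79 and 2.00 CPM, the co-receptors Gas1 and Boc by −1.73 ± 0.18 and −1.24 ± 0.20, and the mesenchymal target Foxf1a from 5.87, 5.75 and 2.83 CPM to 0.504 and 0.583 CPM. Shh and Dhh stayed under 1 CPM, and Shh was not tested. Foxf2 also fell, but did not pass without control clone 1 (FDR 0.108) or either Apex1 library (0.191 and 0.136). In mESCs Gli1 was at 68.1 to 82.6 CPM in controls and at 64.6 and 66.7 CPM in the Apex1 clone. In the Notch list the ligand Jag2 rose from 21, 26.3 and 22 CPM to 63.1 and 53.4 CPM (1.34 ± 0.13), and the targets Hes1 (−0.95 ± 0.10) and Hey2 (−1.71 ± 0.36) fell. Notch1 was higher in the 5-library fit alone (0.75 ± 0.13), and Notch2, Notch3 and Notch4 were not called. Of the retinoid genes 6 of 14 were lower (42.9%, against 13.9% of all tested genes, and 3 without Apex1 replicate 2). Cyp26a1, which degrades retinoic acid and is expressed in the streak, fell from 93.4, 87.1 and 115 CPM to 15.8 and 25.8 CPM, and Rdh10, an enzyme of its synthesis, from 21.2, 23.4 and 18.3 CPM to 9.62 and 10.7 CPM. Crabp2 fell by −1.02 ± 0.17. Aldh1a3, another enzyme of synthesis, was lower in the 5-library fit alone (−2.22 ± 0.69), and Aldh1a2 and Rarb were not called.

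Of the 23 base excision repair genes tested, 4 were higher (17.4%, against 11.9% of all tested genes) and none lower, with a median log2 fold change of 0.17. The 4 were Tdp1, Neil1, Neil2 and Apex1 itself, the targeted gene, counted from exons upstream of the deletion only. Tdp1, which removes adducts from DNA ends, rose from 48.3, 49.2 and 55.6 CPM to 97.2 and 97.7 CPM (0.93 ± 0.09, FDR 6.79e-05 and 0.00466). Neil1 had 5.55, 8.81 and 8.31 CPM against 10.9 and 11.4 CPM, and Neil2 6.18, 8.10 and 10.3 CPM against 14.5 and 15.6 CPM, neither of them past the clone-level fit (FDR 0.6 and 0.275). Apex2, the second AP endonuclease gene, had 27.6, 27.4 and 19.8 CPM against 21 and 20.8 CPM and was not called, nor were Polb, Xrcc1, Lig3 and Parp1.

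Targets of p53, the transcription factor that responds to DNA damage, were higher in 11 of 33 cases and lower in none. The 11 were 33.3%, against 11.9% of all tested genes. The number higher was 6 without control clone 7 and 7 without Apex1 replicate 2. Trp53inp1 rose from 268, 234 and 216 CPM to 403 and 479 CPM (0.88 ± 0.11, FDR 0.000243 and 0.0265) and Zmat3 from 128, 121 and 109 CPM to 214 and 214 CPM (0.84 ± 0.09, FDR 1e-04 and 0.0183). Ercc5, Aen and Pmaip1 rose by 0.76, 0.53 and 0.60, of which Aen and Pmaip1 came under the size limit without control clone 7 (0.49) and without Apex1 replicate 2 (0.47). The changes were small. Mdm2, Sesn2 and Eda2r had log2 fold changes of 0.52 to 0.59 and did not pass the clone-level fit, and Ccng1 was at 0.46 ± 0.11. The largest value of the list was that of Cd80 (1.08 ± 0.30, FDR 0.0215 and 0.407). Cdkn1a, which encodes the cell cycle inhibitor p21, had 144, 152 and 130 CPM in controls and 140 and 134 CPM in the mutant, and Bbc3 and Trp53 were likewise not called. Among cell death regulators 2 of 24 were higher (1 without Apex1 replicate 2) and 4 lower. These shares, 8.33% and 16.7%, were near the 11.9% and 13.9% of all tested genes. Mcl1, an anti-apoptotic member of the BCL2 family, rose from 349, 349 and 395 CPM to 653 and 710 CPM (0.90 ± 0.09, FDR 7.36e-05 and 0.0125), and pro-apoptotic Bak1 fell from 59.5, 65.2 and 64.6 CPM to 44.1 and 38.4 CPM (−0.61 ± 0.10). Bcl2 (−1.13 ± 0.27) and Hrk (−1.43 ± 0.33) were lower in the 5-library fit alone. Bcl2l1, Casp9 and Apaf1 were not called.

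Genes of the AP-1 transcription factor and other immediate early genes were lower in 9 of 16 cases and higher in none. The 9 were 56.25%, against 13.9% of all tested genes, and 6 fell in both fits. Fosl2, a stable AP-1 subunit, fell from 21.8, 30.4 and 26.1 CPM to 5.43 and 4.48 CPM (−2.39 ± 0.18, FDR 1.79e-05 and 0.0187). Jun fell from 31.1, 62.2 and 43.6 CPM to 13.5 and 12.4 CPM (−1.81 ± 0.30, FDR 0.00675 and 0.0608) and Fosb from 2.82, 5.67 and 2.72 CPM to 0.310 and 0.619 CPM. Junb fell in both fits but did not pass the 5-library fit without control clone 7 (FDR 0.135) or without either Apex1 library (0.143 and 0.146). Fos itself had 13.3, 26.1 and 18.6 CPM against 6.56 and 6.16 CPM (FDR 0.00315 and 0.142). Control clone 4 had the highest values of Jun, Junb, Jund, Fos and Fosb. Zfp36 fell by −1.43 ± 0.21, whereas Egr1, Ier2 and Dusp1 were not called. Egr3, at or under 0.583 CPM in every library, was the sixth, and it was not called without Apex1 replicate 2.

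The AP-1 binding motif TGACTCA was looked for on both strands of the 250 bases before the annotated start of each gene (RefSeq, GRCm38.p6). It was present in 6.69% of 553 genes that fell and have a promoter in that table (37 genes), in 3.72% of 457 that rose and in 4.07% of all 10732 tested genes. Over all 27025 promoters of that table the share was 5.16%. The differences between these shares were not tested. Of the 12 AP-1 and immediate early genes with a promoter none held the motif. The promoter of Gbp2, one of the genes with the largest falls, is an example with the motif. Its match is in capitals and reads TGAGTCA, the same motif on the other strand (chr3:142620521-142620607, plus strand, GRCm38.p6).
Gbp2: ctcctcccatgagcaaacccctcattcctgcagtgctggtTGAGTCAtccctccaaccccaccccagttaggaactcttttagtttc
A match describes the sequence only, and binding was not measured.

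NRF2 targets and other oxidative stress genes were higher in 4 of 21 cases (19%, against 11.9% of all tested genes) and lower in none. All 4 rose in both fits. Nqo1, a quinone reductase and the standard NRF2 target, rose from 20.7, 23.5 and 21.4 CPM to 41.6 and 35.2 CPM (0.81 ± 0.12, FDR 0.000689 and 0.0554). Gclc and Gclm, the subunits of the enzyme that limits glutathione synthesis, rose from 78.5, 74.6 and 82.8 CPM to 120 and 118 CPM and from 83.7, 76.4 and 91.0 CPM to 118 and 129 CPM. The log2 fold changes were 0.60 ± 0.09 and 0.56 ± 0.10, and that of Gclm was under the size limit without control clone 4 or Apex1 replicate 2 (both 0.49). Gpx4, which reduces lipid peroxides, rose from 639, 856 and 657 CPM to 1419 and 1062 CPM. Hmox1 had a log2 fold change of −0.35 ± 0.10, in the other direction. The lowest value of the list was −1.03, not called, and 1 member was lower without control clone 4. Srxn1, Txnrd1, Sod1 and Keap1 were not called. Letters of the antioxidant response element, TGACNNNGC, stood in 6 of the 17 promoters of this list (35.3%), in 14.1% of promoters of all tested genes, in 14.9% of genes that rose and in 14.8% of genes that fell. The 6 were G6pdx, Gclm, Nfe2l2, Prdx1, Sod1 and Txnrd1, of which only Gclm was among the 4 genes that rose. Gclm is shown, with the match in capitals on the other strand (chr3:122245383-122245471, plus strand, GRCm38.p6).
Gclm: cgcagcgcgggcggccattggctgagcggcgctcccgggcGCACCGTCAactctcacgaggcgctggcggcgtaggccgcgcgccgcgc

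Interferon-inducible genes and nucleic acid sensors were lower in 8 of 19 cases (5 without Apex1 replicate 1) and higher in none. The 8 were 42.1%, against 13.9% of all tested genes, and 6 fell in both fits. Isg15 fell from 4.57, 7.62 and 12.9 CPM to 0.582 and 0.947 CPM (−3.43 ± 0.55, FDR 0.00464 and 0.0327) and Ifih1, an RNA sensor, from 2.53, 3.02 and 4.74 CPM to 0.621 and 0.437 CPM (−2.68 ± 0.38). Usp18, Zbp1, Irf7 and Ifit1 fell as well. Ifit1 was not called without Apex1 replicate 1 (FDR 0.228). Control clone 7 had the highest value of each of these 6 genes. Both Apex1 libraries lay below every control, as held for 29% of all tested genes. Irf1, Irf9 and Ddx58 were not called. Glycolytic and hypoxia genes gave 3 higher and 2 lower of 20 (15% and 10%, near the 11.9% and 13.9% of all tested genes). Pdk1, which diverts pyruvate from mitochondria, rose from 173, 173 and 212 CPM to 302 and 323 CPM, and Vegfa, a growth factor for endothelium, had 55.9, 68.1 and 63.3 CPM against 35 and 30.3 CPM, which the clone-level fit did not call (FDR 0.000243 and 0.211). Ndrg1 (−0.72 ± 0.22) was lower and Adm (1.08 ± 0.33) higher in the 5-library fit alone, while Slc2a1, Gapdh, Pgk1, Eno1 and Aldoa were not called. Genes encoded in mitochondria were listed at 0 in all libraries and could not be assessed. Of 21 cell cycle genes 1 was higher and 4 lower (19%, against 13.9% of all tested genes). The log2 fold changes were −0.06 for Mki67, 0.08 for Top2a, −0.08 for Ccnb1 and −0.11 for Pcna. The cyclin gene Ccnd2 rose from 26.9, 16.8 and 22.5 CPM to 60.5 and 59.1 CPM (1.43 ± 0.17, FDR 0.000305 and 0.0227), and Ccnd3 fell from 106, 130 and 151 CPM to 84.4 and 74.5 CPM (−0.70 ± 0.14). Ccnd1 was not called, and the inhibitor genes Cdkn2a (−0.59 ± 0.19) and Cdkn2b (−1.06 ± 0.28) were lower in the 5-library fit alone.

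Imprinted genes, which are expressed from 1 parental allele, varied widely among the controls themselves. Control clone 1 stood apart with 314 CPM of Grb10 against 13.2 and 18.5 CPM in clones 4 and 7, 1735 CPM of Igf2 against 316 and 284 CPM, and 86.7 CPM of Mest against 560 and 315 CPM. Against this spread 6 of 24 members were lower and 1 higher (25% and 4.17%, against 13.9% and 11.9% of all tested genes). Without control clone 1, 14 were lower and 3 higher, and without either Apex1 library none was higher. Peg3 fell from 680, 1122 and 974 CPM to 123 and 152 CPM (−2.75 ± 0.24, FDR 0.000432 and 0.00466). Peg10, a retrotransposon-derived gene of the placenta, fell from 2583, 4823 and 3862 CPM to 731 and 723 CPM (−2.37 ± 0.27, FDR 0.00134 and 0.00315), and Sgce, its neighbour, fell from 31, 48.8 and 45.7 CPM to 17.1 and 14.0 CPM. Usp29 fell by −1.30 ± 0.24. Asb4 was called in both fits but not without control clone 7 or either Apex1 library (FDR 0.114 to 0.159). H19 had 513, 5652 and 3121 CPM in controls and 266 and 211 CPM in the mutant, which the 5-library fit did not call (FDR 0.145). Igf2 and Dlk1 were not called either. Airn, a transcript antisense to Igf2r whose reads cannot be assigned by strand here, had 4.71, 10.0 and 3.96 CPM against 0.854 and 0.765 CPM (FDR 0.00262 and 0.101).

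Whether the Apex1 clone differed from controls by the same amount in EBs and in mESCs was tested as the difference of the 2 log2 fold changes. A gene was counted where the FDR was under 10% both with the duplicates apart and with them summed. Relative to its mESC effect, the Apex1 effect in EBs was higher for 328 of 16767 genes (1.96%) and lower for 522 (3.11%), and with the duplicates apart alone for 14.3% and 15.2%. The EB control libraries enter both this and the first comparison. Of the pluripotency list 10 of 25 members were higher, none lower. Pou5f1 had 870, 868 and 874 CPM in control mESCs and 630 and 687 CPM in Apex1 mESCs, and in EBs, on the same scale, 407, 391 and 393 CPM against 674 and 800 CPM. The Apex1 clone thus lay below the controls as mESCs and above them as EBs, a difference of 1.30 on the log2 scale. Esrrb had 493 to 597 CPM in control and 569 and 564 CPM in Apex1 mESCs, and 175 to 181 against 396 and 395 CPM in EBs. Tcl1 gave the largest difference of the list (2.02).

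Pax6 (3.86), Napsa, an aspartic protease gene (3.71), and Egr1 (3.32) were among the genes with the largest positive differences. Pax6 had 7.19, 7.66 and 7.59 CPM in control mESCs and 4.23 and 3.94 CPM in the mutant, and in EBs 0.640, 1.07 and 0.941 CPM against 6.30 and 7.42 CPM. Egr1 differed in mESCs, with 59.3, 64.2 and 124 CPM against 8.10 and 10.1 CPM, and not in EBs. The fourth, the pseudogene Rpl14-ps1 (3.44), shares reads with its parent and is uncertain. Gbp2 (−5.53), Anxa1 (−5.31), Gbp1 (−5.17) and Tgfb2 (−4.91) had the largest negative differences, both rankings being among genes averaging at least 2 in log2 CPM over the 10 libraries whose effects did not overlap between stages. Some genes below that level, Hoxc8 and Actc1 among them, had more negative fitted differences. Anxa1 was above the controls in Apex1 mESCs, at 10.7 and 9.42 CPM against 3.56, 4.80 and 5.86 CPM, and far below them in EBs. Lineage lists gave lower effects in EBs: 9 of 24 endoderm genes, 9 of 15 basement membrane genes, 8 of 17 matrix genes, 7 of 21 streak genes, 7 of 18 BMP genes, 6 of 23 Wnt genes and 4 of 36 Hox genes. Higher effects numbered 1 in the streak list (Tcf15) and 1 in the Wnt list (Sfrp2), and there were none in the other 5. In mESCs several of these genes were at or near 1 CPM, as was Msx1 with 0.771 to 1.47 CPM in all 5 mESC libraries.

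EBs of the Neil1 and Neil2 mutants were grown under the same conditions and could be compared with the Apex1 mutant directly, the controls entering only through the estimate of the spread. Apex1 EBs were compared with the mean of the Neil1 and Neil2 groups of 3 clones each, again counting genes past the limits with the duplicates apart and summed. Of 16322 genes 816 were above (5%) and 776 below (4.75%) the Neil mutants in Apex1 EBs, and with the duplicates apart alone 9.94% were above and 10.8% below. Posterior and mesodermal genes were higher in the Apex1 mutant. Of 36 Hox genes 15 were above and none below, of 21 streak genes 9 above and none below, and of 17 matrix genes 8 above and none below. T had 26 and 31.7 CPM in Apex1 EBs and 0.608 to 5.83 CPM in the 6 Neil libraries, on a scale common to all 11 EB libraries, and 65.7, 66.4 and 110 CPM in controls. Col1a1 had 15.2 and 19.7 CPM against 0.919 to 4.32 CPM in the Neil mutants and 91.5 to 185 CPM in controls. For these genes the Apex1 libraries lay between the controls and the Neil mutants. The log2 differences from the Neil mutants were 3.18 for T, 3.44 for Col1a1, 3.21 for Mixl1 and 2.96 for Nrp1, a receptor of semaphorins and VEGF.

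Endoderm and basement membrane genes gave the opposite picture. Of 24 endoderm genes 8 were below the Neil mutants and none above, and of 15 basement membrane genes 11 below and none above. Col4a1 had 95.8 and 109 CPM in Apex1 EBs, 243 to 974 CPM in Neil EBs and 400 to 479 CPM in controls. The Apex1 libraries were lowest of all groups. Afp, Ttr, Apoa1 and Cubn were below the Neil mutants by log2 values of −3.57, −2.68, −3.19 and −2.74. Gata6 was not called, with 5.92 and 6.55 CPM against 7.40 to 25.5 CPM. Trophoblast genes were below in 5 of 13 cases and above in 1, Cdx2, and germline genes were below in 7 of 20 and above in 1, Tdrd1. Of 25 pluripotency genes none was above the Neil mutants and 3 were below. Pou5f1 had 645 and 764 CPM in Apex1 EBs, 380 to 788 CPM in Neil EBs and 374 to 391 CPM in controls. Pax6 had 6.03 and 7.09 CPM, 2.30 to 7.28 CPM and 0.615 to 1.02 CPM in the same groups. Neither gene was called between the mutants. Hoxa2 (2.77), Eomes (1.03) and Crabp1 (1.23) were above the Neil mutants, while Klf4 (−0.93) and the p53 target Eda2r (−1.05) were below. Eda2r had 64.4 and 67.8 CPM in Apex1 EBs, 96.0 to 171 CPM in Neil EBs and 32.6 to 50.9 CPM in controls. The 4 genes furthest below, by the same conditions over the EB libraries, Pnma5, Efhc2, Xlr3a and Pnma3 (−4.59 to −5.21), are all on the X chromosome. Over 377 genes of that chromosome the median log2 difference from controls was −0.10 and −0.03 in the Apex1 libraries and −0.05 to 0.23 in the Neil libraries, and its part in these 4 values was not tested.

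**Figure D3:**
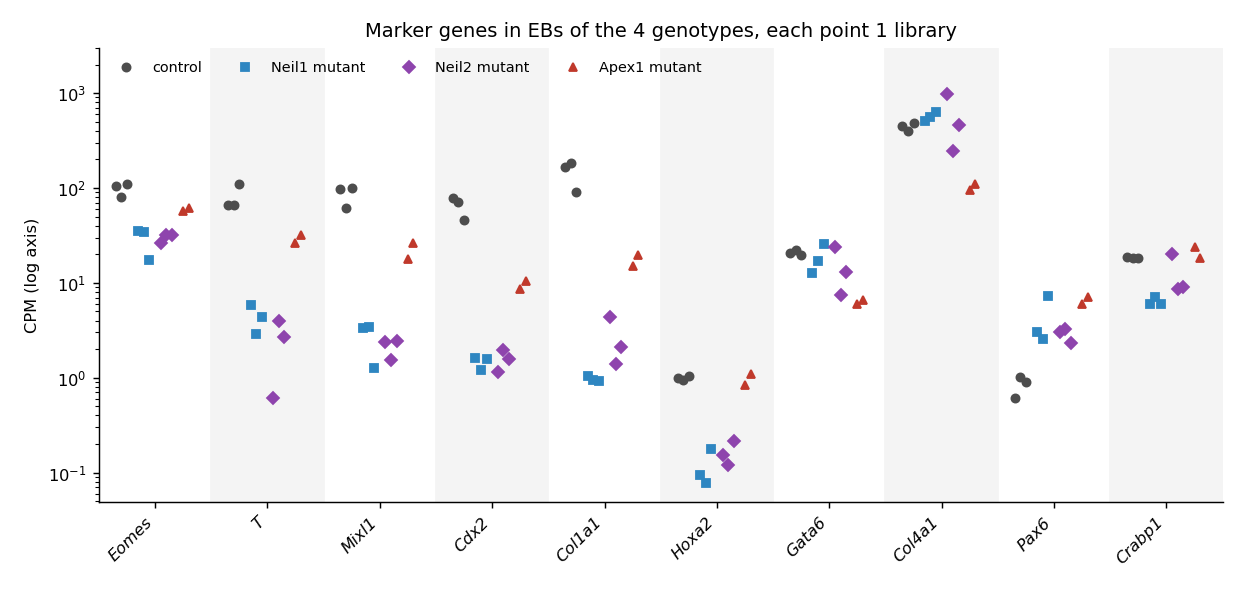
CPM of 10 marker genes in each EB library of the 4 genotypes, on a log axis. Circles are controls, squares Neil1 mutants, diamonds Neil2 mutants and triangles the Apex1 duplicates. T, Mixl1, Cdx2 and Col1a1 in the Apex1 libraries lie between the controls and the Neil mutants, and Col4a1 lies below all other libraries.

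Of all chromosomes, 12 had the largest median difference from controls in the Apex1 EB libraries. Over 389 genes of chromosome 12 with at least 5 CPM, the median log2 difference from the control mean was 0.27 and 0.30 in the Apex1 EB libraries and at most 0.02 in size in control clones. The medians of the other chromosomes were between −0.10 and 0.08. On chromosome 12 the medians were 0.41 and 0.44 over 259 genes beyond 60 Mb, a boundary chosen after the values along the chromosome were seen, and 0.05 and 0.06 over 130 genes before it. Of the 259 genes 43.6% were called higher, against 9.35% on all other chromosomes. In Apex1 mESCs the medians beyond 60 Mb were 0.27 and 0.22 over 262 genes, against 0.17 and 0.10 before 60 Mb and 0.04 and 0.02 on the other chromosomes pooled. The pattern was weaker at that stage. Chromosome 1 had medians of 0.18 and 0.14 in Apex1 mESCs, near the 0.21 and 0.17 of the whole of chromosome 12. On chromosome 12 the window of 110 to 120 Mb had 0.04 and 0.16, and that of 10 to 20 Mb 0.21 and 0.32. DNA copy number was not measured. Called list members in this region that rose were Esrrb and Tcl1 of the pluripotency list, Jag2, Tdp1 and Rpl10l. Mirg was higher, and Fos, Gsc and Amn were lower. The imprinted list had 4 tested members there, and none but Mirg was called. The part of the region in the values of these genes was not tested. Without its genes 1727 were higher and 2158 lower in the first comparison, and the pluripotency list kept 15 members higher.

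**Figure D4:**
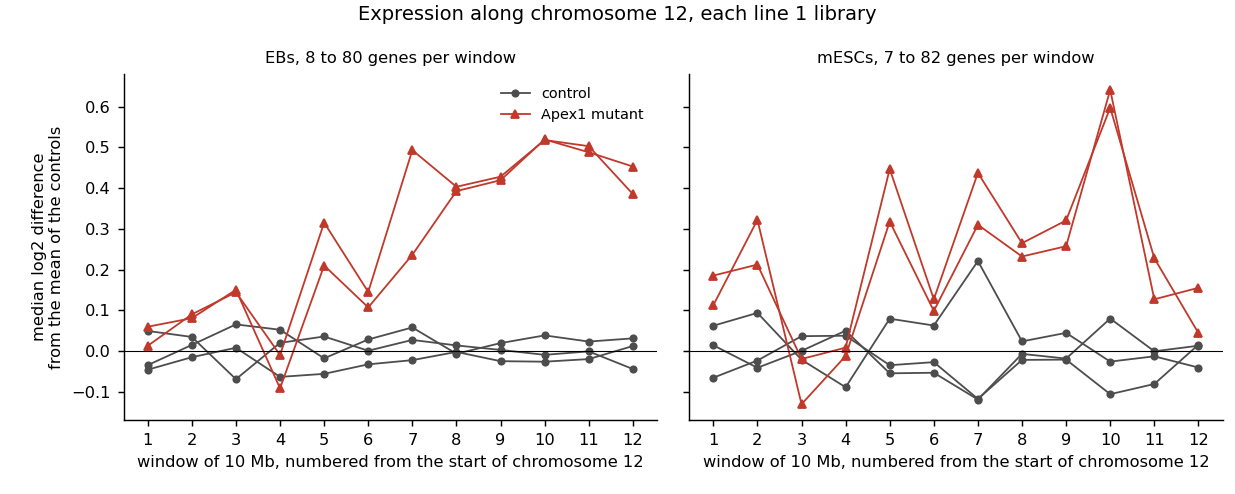
Median log2 difference from the mean of the controls in windows of 10 Mb along chromosome 12, numbered from its start, for genes with at least 5 CPM, in EBs (left) and mESCs (right). Each line is 1 library, dark for controls and red for the Apex1 clone. In EBs both red lines run between 0.24 and 0.52 from window 7 on, above the controls. Windows 2, 3, 5 and 6 are also above every control. In mESCs the red lines are at 0.04 and 0.16 in window 12 and at 0.21 and 0.32 in window 2. Windows hold 8 to 80 genes in EBs and 7 to 82 in mESCs.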

How the data were processed

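RNA was sequenced from polyA-selected, unstranded TruSeq libraries. Per the labels and the study's methods, the authors aligned reads to mm9 (NCBIM37) with TopHat2 2.0.9 and Bowtie2 2.1.0 and counted them per gene with HTSeq 0.5.4. The deposited values are raw counts for 37991 gene identifiers, with one file per library. Summary lines that name no gene held 23.7% to 25.2% of the alignments counted in the 5 libraries and were left out.

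Counts were scaled by TMM and tested with edgeR 4.0.16 (R 4.3.3), quasi-likelihood, robust, after filterByExpr, with Benjamini-Hochberg adjustment. A gene was called at an FDR under 0.1 and an absolute log2 fold change over 0.5, the limits of the study. The standard error is the absolute log2 fold change divided by the square root of F. CPM are scaled over the 5 EB libraries, except in the comparisons with mESCs (10 libraries) and with Neil mutants (11 EB libraries). At depths of at least 25992707 counts, counting error is small for abundant genes but not for genes near or under 1 CPM. P-values cover the spread between these libraries only.

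In simulated data on 15780 genes, 75 of 100 changed by 1 and 91 of 100 changed by 2 in log2 were recovered. There were 26 false calls, and 11 where no gene was changed. These counts cannot give the error rate between clones, because the Apex1 libraries are technical duplicates of a single clone. Lists and members were chosen with earlier results of these data known. Named were the study's markers, the 8 largest rises and falls past both fits with no overlap, the first 3 and the 4 largest called members of each list, and the 4 largest genes each way in the other contrasts. Other list members were named after their values were seen. Alternatives were DESeq2 1.42.0, RLE scaling, other filters, summed duplicates, a replicate block, all EB groups in 1 fit and each library left out. Sox1, Ahsp and Kcnq1ot1 were not analysed here. Some items are not reported here.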

Additional observations from a re-analysis of the deposited data

Results flagged for a closer look

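Each of these values is a difference between effects or between mutants that was tested by a contrast of its own and passed with the Apex1 duplicates apart and summed. The Apex1 effect differed between EBs and mESCs for 328 genes that were higher and 522 that were lower in EBs relative to mESCs. Among the markers of the study the difference was 1.30 for Pou5f1, −2.50 for Gata6, −1.70 for Eomes, 3.86 for Pax6 and −1.67 for Nes, on the log2 scale. Rankings were made among genes averaging at least 2 in log2 CPM whose effects did not overlap between stages. The largest positive differences besides Pax6 were 3.71 for Napsa, 3.44 for the pseudogene Rpl14-ps1, whose count is uncertain, and 3.32 for Egr1. The largest negative ones in this ranking were −5.53 for Gbp2, −5.31 for Anxa1, −5.17 for Gbp1 and −4.91 for Tgfb2, which encodes a TGF-beta ligand. Some genes below that level, Hoxc8 (−5.70) and Actc1 (−5.56) among them, had more negative fitted ones. Tgfb2 had 78.1, 72.8 and 39.2 CPM in control EBs and 4.80 and 8.91 CPM in Apex1 EBs, but 0.446 to 0.578 CPM in control mESCs and 1.61 and 1.72 CPM in Apex1 mESCs.

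Apex1 EBs differed from Neil1 and Neil2 EBs in 816 genes that were higher and 776 that were lower. Apex1 itself differed by 2.49, from upstream exons only. Among markers the difference was −0.93 for Klf4, 1.03 for Eomes, 2.77 for Hoxa2, 1.23 for Crabp1 and −1.05 for Eda2r. The same limit on level was used, with no overlap between Apex1 and Neil libraries. The largest positive differences were then 3.44 for Col1a1, 3.21 for Mixl1, 3.18 for T and 2.96 for Nrp1. Some genes below that level, Hoxc8, Aplnr and Bmp5 among them, had larger fitted ones. The largest negative ones were −5.21 for Pnma5, −5.16 for Efhc2, −4.61 for Xlr3a, a member of a multicopy family, and −4.59 for Pnma3. Pnma5 had 2.50 and 1.92 CPM in Apex1 EBs, 72.8 to 98.8 CPM in Neil EBs and 11.7 to 20.3 CPM in control EBs.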

How the results depend on the processing

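None of the 199 named genes changed direction where it was called, under the alternatives of the first comparison. Direction was not checked for other genes or in the other contrasts. The first comparison gave 1873 higher and 2195 lower genes, and 694 and 805 in the clone-level fit. Without 1 library at a time it gave 1214 to 2090 higher and 1388 to 2296 lower, the lowest without Apex1 replicate 2. DESeq2 gave 1614 and 2026, RLE size factors 1850 and 2213, no filter 2026 and 2407, summed duplicates 1262 and 1534 and all EB groups in 1 fit 1468 and 1767. Of the 199 named genes that were tested, 164 were called, and 112 in the clone-level fit, which uses fewer Apex1 samples.

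The difference between EBs and mESCs gave 2396 higher and 2543 lower genes with the duplicates apart, 328 and 524 with them summed, 1571 higher at an FDR of 0.05, and 1307 to 2482 higher and 1363 to 2397 lower without 1 EB library. The contrast with the Neil mutants gave 1623 and 1762 with the duplicates apart, 826 and 792 with them summed, and 609 to 1610 and 558 to 1739 without 1 library. Both contrasts had their lowest counts without an Apex1 library, the first without replicate 1 and the second without replicate 2. The median over chromosome 12 was 0.288, 0.263 with a minimum of 1 CPM. Leaving out its genes beyond 60 Mb, an alternative chosen after seeing the data, gave 1727 higher and 2158 lower genes in the first comparison. The number of lists with more lower than higher members stayed between 19 and 23. Small list counts rest on single libraries: without Apex1 replicate 2, higher Wnt members went from 4 to 2 and lower Notch members from 4 to 2. Lower cell cycle members went from 4 to 2 without control clone 4 or either Apex1 library, lower germline members from 4 to 2 without either Apex1 library, and lower erythroid members from 2 to 1 without control clone 4 or either Apex1 library. Without control clone 1, lower hypoxia members went from 2 to 4 (1 without control clone 7 or Apex1 replicate 2) and higher germline members from 3 to 5. Without at least 1 of the libraries, higher members went from 2 to 1 in the neural crest, Hox, epithelial and cell death lists, from 1 to 0 in the cardiac and matrix lists and from 1 to 2 in the cell cycle and retinoid lists, and lower neuronal members from 2 to 1.

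Control and Apex1 libraries share only replicate numbers, and their deviations had a correlation of −0.135 over 15780 genes with 2 pairs. With a replicate block 2019 genes were higher and 2238 lower. Of the 199 named genes, 7 lost and 6 gained a call with the block. Genes under 1 CPM, single-clone replication of the mutant and the lack of strand limit what can be read from these libraries.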
